A study of Homo sapiens with 18 samples.

Results

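The pappalysins and the insulin-like growth factor (IGF) binding proteins were followed across lines of the human melanoma cell lines SKmel147 and 501mel in which ARID2 had been targeted. The 10 genes were the proteases PAPPA and PAPPA2, the binding proteins IGFBP2 to IGFBP7, and the receptors IGF1R and IGF2R, of 56629 gene symbols in the count tables. They were taken by name. The family was chosen by one value, the lower PAPPA2 count in the SKmel147 KO libraries than in the SKmel147 controls, so PAPPA2 in that contrast is described here without a test. The other members were listed with the same contrast already known, and their tests there describe single genes.

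Polyadenylated RNA was sequenced from 18 libraries of 9 lines, all of metastatic melanoma and grown in DMEM with serum and antibiotics. ARID2 is a defining subunit of PBAF, one of the SWI/SNF complexes that remodel chromatin. SKmel147 is labelled with an NRAS mutation. Its 5 lines were Par, which has no construct, and NT, KO1.4, KO1.5 and KO3.20, which were stably infected with Lenti-Cas9 and a PLKO guide vector. 501mel is labelled with a BRAF mutation. Its 4 lines were Par, which has no construct, and NTC, KO1.8 and KO5.2, which carried Cas9 and guide on Lenti-CRISPR V2. Lines named KO had ARID2 targeted. What NT and NTC stand for is not spelled out; both are transduced controls below. R1 and R2 are the 2 libraries of a line. The labels leave unsaid whether R1 and R2 were separate cultures and whether lines are clones or pools, so p-values measure only the spread between libraries, which may be technical. Library totals ran from 21266522 to 35670140 counts in SKmel147 and from 16749707 to 20606855 in 501mel. ARID2 itself was at 62.3 to 72.8 CPM (counts scaled to a common library size) in the SKmel147 controls and 39.8 to 57.0 in the KO libraries, and at 40.9 to 43.2 and 19.8 to 32.0 in 501mel. It was least below the controls in SKmel147 KO1.4 (log2 difference -0.25, adjusted p = 0.228), and gene counts do not show whether the reading frame was broken. In 501mel all 10 melanocyte lineage markers were at 1 CPM or more in every library. In SKmel147 only SOX10 (146 to 249.5 CPM) and MITF (11.2 to 17.7 CPM) were, while the melanocyte genes TYR, DCT, KIT and S100B stayed below 1 CPM.

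IGF1 and IGF2 are growth factors that signal through the tyrosine kinase IGF1R. Most IGF outside cells is held by binding proteins, which limit its access to the receptor. The pappalysins are secreted metalloproteases that free IGF by cutting certain binding proteins: PAPPA cuts mainly IGFBP4, and PAPPA2 mainly IGFBP3 and IGFBP5. The stanniocalcins STC1 and STC2 bind and inhibit the pappalysins. IGF2R takes up IGF2 for degradation and sorts lysosomal enzymes.

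RefSeq promoter windows of GRCh38.p14, each 300 bases from 250 before to 50 after an annotated start, matched 9 of the 10 members in 11 windows. The pappalysins PAPPA2 and PAPPA are shown because PAPPA2 was lower in the SKmel147 KO lines while PAPPA was higher in KO1.4 and KO1.5, and IGF1R because its change had opposite signs in the 2 cell lines. The windows lie at chr1:176462925-176463224 for PAPPA2, chr9:116153541-116153840 for PAPPA and chr15:98648289-98648588 for IGF1R, all on the plus strand. Capitals mark CG dinucleotides.
PAPPA2: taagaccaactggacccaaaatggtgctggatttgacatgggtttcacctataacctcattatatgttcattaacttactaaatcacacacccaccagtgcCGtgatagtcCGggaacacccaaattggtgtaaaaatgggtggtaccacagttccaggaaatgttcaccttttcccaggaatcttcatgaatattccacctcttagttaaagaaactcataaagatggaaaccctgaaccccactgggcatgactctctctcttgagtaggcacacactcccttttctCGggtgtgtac
PAPPA: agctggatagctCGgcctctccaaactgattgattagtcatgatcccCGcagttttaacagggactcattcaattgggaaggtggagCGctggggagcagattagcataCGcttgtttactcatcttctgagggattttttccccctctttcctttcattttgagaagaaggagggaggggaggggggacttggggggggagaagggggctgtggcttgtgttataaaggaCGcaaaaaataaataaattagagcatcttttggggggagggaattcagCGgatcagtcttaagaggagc
IGF1R: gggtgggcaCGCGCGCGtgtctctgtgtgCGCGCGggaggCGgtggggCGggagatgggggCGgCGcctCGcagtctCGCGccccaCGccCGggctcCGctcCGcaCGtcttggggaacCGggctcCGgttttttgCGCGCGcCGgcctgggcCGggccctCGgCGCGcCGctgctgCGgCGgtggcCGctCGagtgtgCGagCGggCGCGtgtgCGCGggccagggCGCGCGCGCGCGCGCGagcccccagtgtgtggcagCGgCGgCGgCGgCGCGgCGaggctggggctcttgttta
The PAPPA2 window held 3 CG dinucleotides and the PAPPA window 6, against a median of 14 over 35116 windows. The IGF1R window held 55, and 99.7% of windows had as many or fewer. Of the other members, IGF2R had 41, IGFBP3 36 and IGFBP4 30, while IGFBP6 had 12, IGFBP5 9 and the 3 windows of IGFBP2 28, 8 and 6. Few CG dinucleotides were thus not particular to the pappalysins. Several motifs were searched on both strands. The AP-1 motif TGANTCA occurs in 7.71% of windows and the E-box CACGTG in 7.26%. The GC box GGGCGG occurs in 45%, the TEAD motif GGAATG in 14% and the TATA box TATAAA in 11.5%. PAPPA2 had none of these. PAPPA had 1 TATA box and IGF1R 2 GC boxes, while the IGF2R window held 3 E-boxes and 6 GC boxes.

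The control lines of the 2 cell lines held different members of the family. Per kilobase of exon, the SKmel147 controls had most PAPPA, at 14.1 ± 2.4 CPM per kb (SD of 2 line means), followed by IGF2R at 13.98 ± 2.6. IGFBP3 followed at 9.66 ± 1.90, IGFBP6 at 8.59 ± 4.11 and IGFBP4 at 4.98 ± 0.30 CPM per kb. Neighbours in this order overlapped between libraries down to IGFBP4, which did not overlap IGF1R (3.07 ± 0.12 CPM per kb). PAPPA2 was lower, at 2.57 ± 0.30 CPM per kb, and overlapped IGFBP1 but not IGFBP7 (0.786 ± 0.036). IGFBP5 and IGFBP2 were at 0.0495 and 0.0327 CPM per kb and overlapped each other.

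The 501mel controls had IGF1R at 31.4 ± 2.7 and IGF2R at 27.7 ± 0.05 CPM per kb, which overlapped between libraries. IGFBP2, a binding protein of both IGFs, followed at 18.9 ± 1.9 CPM per kb and overlapped neither IGF2R nor IGFBP6 (0.649 ± 0.331). The other binding proteins and the pappalysins were close to nothing. PAPPA had 1 count and PAPPA2 3 counts in all 8 501mel libraries together. IGFBP3 and IGFBP4 had 0, which allows up to 0.0421 CPM over the 4 control libraries (3 counts of their total, counting error only).

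**Figure D1:**
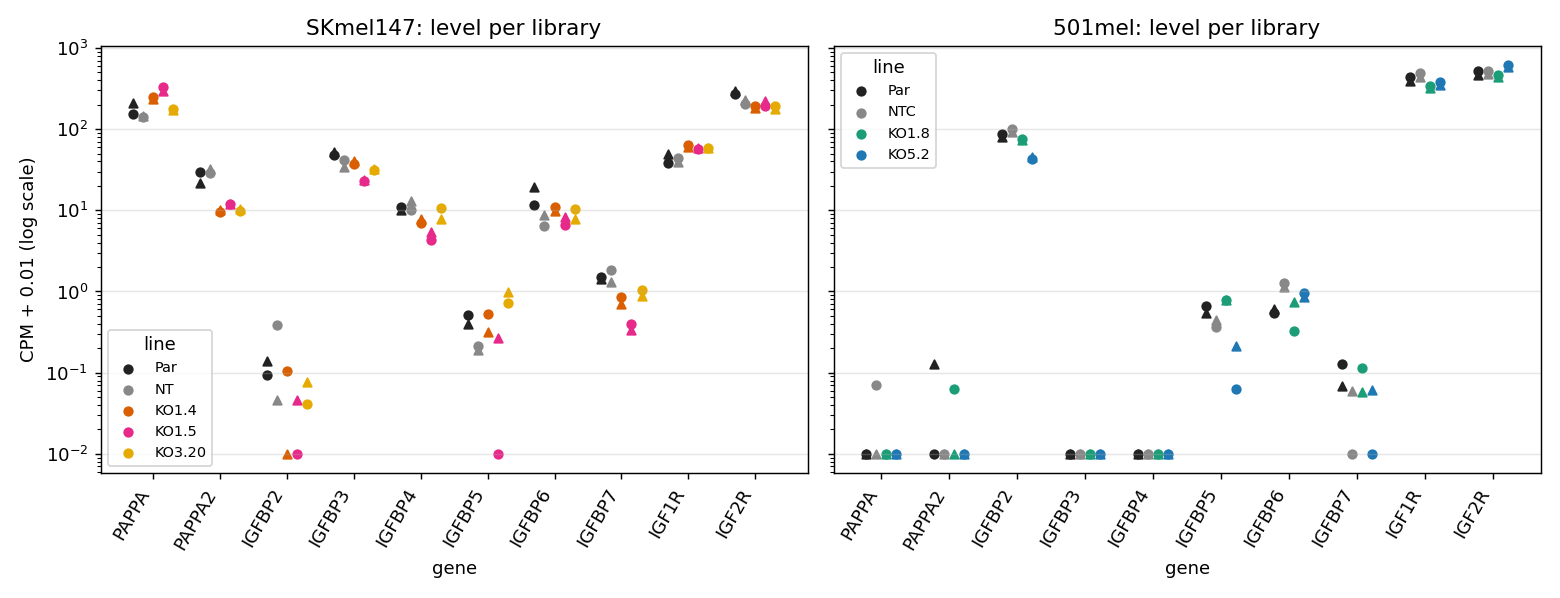
Level of each of the 10 genes in every library, as CPM plus 0.01 on a log axis, for SKmel147 (left) and 501mel (right). Colours mark lines, circles R1 and triangles R2. PAPPA lies between 141 and 331 CPM in SKmel147 and at the floor of the plot in all but 1 501mel library.

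Between the control lines of SKmel147 and 501mel, 9 of the 10 members differed by edgeR's quasi-likelihood test, as did 80.7% of all tested genes. Of the 9, 6 were higher and 3 lower in SKmel147. PAPPA, PAPPA2, IGFBP3, IGFBP4 and IGFBP7 passed the filter on low counts only in SKmel147, and IGFBP2 only in 501mel. These entered the joint test through the cell line where they were high. Their calls were thus largely set beforehand, and they are described here without a test. PAPPA had 18646 counts against 1 in the control libraries, a ratio of 11432 after scaling for depth (95% counting interval 2052 to 451572). PAPPA2 had 3308 against 2, a ratio of 1014 (280.5 to 8377). IGFBP3 was at least 1046-fold and IGFBP4 at least 260.4-fold higher in SKmel147, computed against 3 counts over the 4 501mel control libraries. IGFBP7 was higher by 4.86 ± 0.43 and IGFBP6 by 3.79 ± 0.24 on the log2 scale (SE), the latter with adjusted p = 1.07e-10. In the other direction IGFBP2 was lower by a log2 value of -9.15 ± 0.22. IGF1R was lower by -3.29 ± 0.08 (adjusted p = 4.41e-16) and IGF2R by -0.93 ± 0.07 (adjusted p = 7.28e-10). IGFBP5 differed by -0.64 ± 0.48 (adjusted p = 0.22). The genes that act with the pappalysins were split in the same way: STC2 had 19555 counts against 2, IGFBP1 557 against 0 and the protease HTRA1 3381 against 1. Cell line cannot be told apart here from donor, driver mutation and sequencing run.

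The make-up of the binding protein RNA followed from this. In the SKmel147 controls the summed level of IGFBP1 to IGFBP7 was 21.8 to 35.0 CPM per kb, of which IGFBP3 made up 32.6 to 41.7%, IGFBP6 22.1 to 41.2% and IGFBP4 13.1 to 25.8%. In the SKmel147 KO libraries the sum was 13.2 to 21.4 CPM per kb, below every control library. The gap lay mainly between Par (28.5 and 35.0) and KO1.5 (13.2 and 14.9): NT had 21.8 and 22.7, KO1.4 20.8 and 21.0, and KO3.20 21.4 and 18.1 CPM per kb. IGFBP3 then made up 32.4 to 42.0% and IGFBP6 32.5 to 40.7%, so the leading pair stayed the same while the sum was lower. In the 501mel controls IGFBP2 alone made up 95.4 to 97.1% of a sum of 17.3 to 21.98 CPM per kb. In the 501mel KO libraries the sum was 9.82 to 16.1 CPM per kb, and IGFBP2 made up 92.8 to 97.5% of it. No test was run on these sums.

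**Figure D2:**
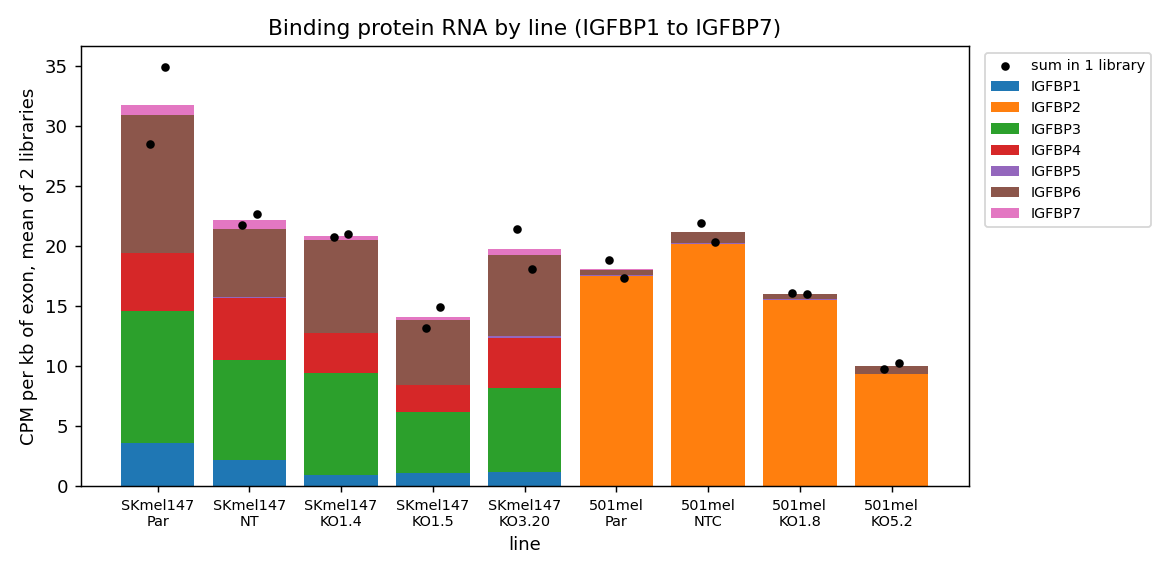
Stacked bars give the CPM per kb of exon of IGFBP1 to IGFBP7 in each line (mean of 2 libraries), and black points the sum in each library. SKmel147 lines hold mainly IGFBP3, IGFBP6 and IGFBP4, and 501mel lines almost only IGFBP2; the sums of the KO libraries lie below those of their controls.

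PAPPA2, the value the family was chosen on, was at 29.6 and 21.9 CPM in the SKmel147 Par libraries and at 28.8 and 32.2 in NT. It was at 9.59 and 10.1 CPM in KO1.4, 11.96 and 11.8 in KO1.5, and 9.94 and 10.2 in KO3.20. The KO libraries lay within a narrow range, below every control library. The log2 difference was -1.41 ± 0.10 (SE), and -1.51, -1.24 and -1.48 in KO1.4, KO1.5 and KO3.20 taken singly. NT differed from Par by 0.24 ± 0.15 on the same scale. The 20 nearest tested genes on chromosome 1 had a median of -0.36 in the KO contrast, against -0.10 for chromosome 1 and -0.02 for all placed genes. The same neighbours had a median of 0.62 between NT and Par. Whether neighbourhood and PAPPA2 levels are linked was not tested.

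Of the 9 members that passed the filter on low counts in SKmel147, IGFBP2 being the exception, 8 besides PAPPA2 were tested in KO against controls. PAPPA and IGF1R rose and IGFBP3, IGFBP4, IGFBP7 and IGF2R fell, 6 of 8, in a contrast where 17.7% of 18361 tested genes were called (8.07% higher and 9.6% lower). Their median log2 change was -0.33 against -0.01 over all tested genes. Since this contrast chose the family, nothing is read from that count. All of these calls take the 2 libraries of a line as replicates. With 1 summed sample per line, edgeR called none of the 8. Of them 4 had an unadjusted p under 0.05 (PAPPA, IGF1R, IGF2R and IGFBP7), as did 12.7% of 19729 genes. The adjusted p-values of these 4 were 0.141 to 0.363. This count is from the contrast that chose the family, and nothing is read from it either. With limma-voom and the line as a random block, 1 was called, IGF1R (adjusted p = 0.0319), among 597 genes called.

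PAPPA, the protease that cuts IGFBP4, was at 155 and 211 CPM in Par and 141 and 146 in NT. It was at 249 and 233 CPM in KO1.4, 331 and 293 in KO1.5, and 178 and 172 in KO3.20. The KO1.4 and KO1.5 libraries lay above every control library, and those of KO3.20 within the control range. Over the 3 KO lines PAPPA rose by 0.54 ± 0.09 on the log2 scale (adjusted p = 0.00153). By line the differences were 0.57 ± 0.12 in KO1.4 (adjusted p = 0.00968), 0.95 ± 0.11 in KO1.5 (adjusted p = 0.000364) and 0.11 ± 0.12 in KO3.20 (adjusted p = 0.61). With the line as a block in limma-voom its adjusted p was 0.158. The balance of reads between the pappalysins also differed. There were 0.104 to 0.221 PAPPA2 reads for each PAPPA read in the control libraries and 0.0362 to 0.0594 in the KO libraries. The ratio was 3.94 times lower in the KO lines, from the mean of the line means in each arm (0.180 and 0.0456). No test is given, since PAPPA2 is part of it.

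The inhibitors of the pappalysins did not move together. STC1 was at 147 and 140.3 CPM in Par, 89.9 and 81.4 in NT, 90.4 and 93.6 in KO1.4, 36.3 and 34.8 in KO1.5, and 56.7 and 54.3 in KO3.20. It fell by 0.97 ± 0.07 on the log2 scale (adjusted p = 2.81e-06), with KO1.4 at the level of NT (-0.27 against both controls, adjusted p = 0.0956). STC1 also differed between NT and Par, by -0.75 ± 0.10 (adjusted p = 0.00184). STC2 was at 152 to 198 CPM in the controls and 158 to 181 in the KO libraries, a log2 difference of 0.03 with a 95% interval of -0.11 to 0.17 (adjusted p = 0.799). PRG2, whose product inhibits PAPPA, had at most 2 counts in any SKmel147 library. The ratio of STC1 to STC2 reads ran from 0.535 to 0.887 in the controls and from 0.220 to 0.525 in the KO libraries.

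IGFBP3, the main carrier of IGF in serum and a substrate of PAPPA2, was at 48.4 and 52.1 CPM in Par and 41.5 and 34.5 in NT. It was at 37.0 and 40.4 CPM in KO1.4, 22.9 and 23.8 in KO1.5, and 31.7 and 32.0 in KO3.20. KO1.5 and KO3.20 lay below every control library, and KO1.4 overlapped NT. IGFBP3 fell by 0.51 ± 0.08 on the log2 scale (adjusted p = 0.00105). Against NT alone the difference was -0.31 (adjusted p = 0.0695). NT itself was lower than Par by a log2 value of -0.40 ± 0.12 (adjusted p = 0.0618).

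IGFBP4, the substrate of PAPPA, was at 10.9 and 10.1 CPM in Par and 9.94 and 12.9 in NT. It was at 6.99 and 7.70 CPM in KO1.4, 4.32 and 5.39 in KO1.5, and 10.8 and 7.74 in KO3.20. The lowest libraries were those of KO1.5, and 1 KO3.20 library lay within the control range. IGFBP4 fell by 0.66 ± 0.13 on the log2 scale (adjusted p = 0.00481), and without KO1.5 the difference was -0.40 (adjusted p = 0.0901). In KO1.5, where PAPPA was highest, IGFBP4 was lowest; with 3 KO lines no relation between them can be tested.

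IGFBP7, a related secreted protein with low affinity for IGF, was scarce, at 1.30 to 1.83 CPM in the controls. It was at 0.85 and 0.69 CPM in KO1.4, 0.38 and 0.33 in KO1.5, and 1.04 and 0.86 in KO3.20, below every control library. It fell by 1.24 ± 0.21 on the log2 scale (adjusted p = 0.00199). Only KO1.5 passed the test when each line was compared singly (-2.07 ± 0.33, adjusted p = 0.00199). IGFBP6, which binds IGF2 by preference, was at 11.6 and 19.4 CPM in Par, 6.48 and 8.82 in NT and 6.54 to 10.9 in the KO libraries. Its log2 difference of -0.30 ± 0.16 did not pass (adjusted p = 0.249). It depended on the control: IGFBP6 was lower against Par alone (-0.80, adjusted p = 0.0146) and without Par R1 (-0.46, adjusted p = 0.0491), and 0.21 against NT alone (adjusted p = 0.597). IGFBP5, cut by both pappalysins, stayed under 1 CPM in every library, with a log2 difference of 0.21 ± 0.53 (adjusted p = 0.828). IGFBP1, a binding protein listed with the wider pathway, was at 5.84 and 6.15 CPM in Par, 3.83 and 3.35 in NT and 1.51 to 2.14 in the KO libraries. It fell by 1.39 ± 0.14 on the log2 scale (adjusted p = 5.4e-05), and NT was lower than Par by -0.74 ± 0.21 (adjusted p = 0.0481).

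The receptors moved in opposite directions in SKmel147. IGF1R was at 38.3 and 49.8 CPM in Par and 43.5 and 39.7 in NT. It was at 63.9 and 59.7 CPM in KO1.4, 57.3 and 58.6 in KO1.5, and 59.3 and 58.4 in KO3.20. Every KO library lay above every control library, and the KO libraries spanned only 57.3 to 63.9 CPM. IGF1R rose by 0.48 ± 0.09 on the log2 scale (adjusted p = 0.00296), with 0.53, 0.44 and 0.46 in KO1.4, KO1.5 and KO3.20 (adjusted p = 0.0135, 0.0287 and 0.0206). NT differed from Par by -0.08 ± 0.13 (adjusted p = 0.742).

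IGF2R was at 273 and 293 CPM in Par, 203 and 229 in NT, and 176 to 221 in the KO libraries, so the KO libraries overlapped NT but not Par. It fell by 0.36 ± 0.07 on the log2 scale (adjusted p = 0.00592). Against NT alone the difference was -0.17 (adjusted p = 0.309), and NT was lower than Par by -0.39 ± 0.11 (adjusted p = 0.0568). The insulin receptor INSR, a close relative of IGF1R, also depended on the control. It was at 7.66 and 10.1 CPM in Par, 3.39 and 3.998 in NT, and 9.27 to 13.0 in the KO libraries. It rose by 1.00 ± 0.13 on the log2 scale (adjusted p = 0.000313), but by 0.37 against Par alone, which did not pass (adjusted p = 0.126).

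Line by line, the members besides PAPPA2 that passed were 3 of 8 in KO1.4 (PAPPA, IGF1R and IGF2R), where 8.77% of genes were called. In KO1.5 they were 5 of 8 (PAPPA, IGFBP3, IGFBP4, IGFBP7 and IGF1R), where 11.2% were. In KO3.20 they were 3 of 8 (IGFBP3, IGF1R and IGF2R), where 12.6% were. Of these 8, IGF1R alone was on all of these lists; the lines share their controls. Between NT and Par, which carry no knockout, 1 of 8 passed, IGFBP6 (-1.01 ± 0.25, adjusted p = 0.0305), where 9.27% were called. That call was lost without Par R2 (-0.61, adjusted p = 0.182), without NT R1 (-0.81, adjusted p = 0.202) and without either KO1.4 library. Over 15371 genes the NT against Par difference fell with GC content (Spearman rho -0.41), while KO against controls had a rho of -0.06. The longest IGFBP6 transcript has 64.15% GC. A correction for GC content and length is among the alternatives below.

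**Figure D3:**
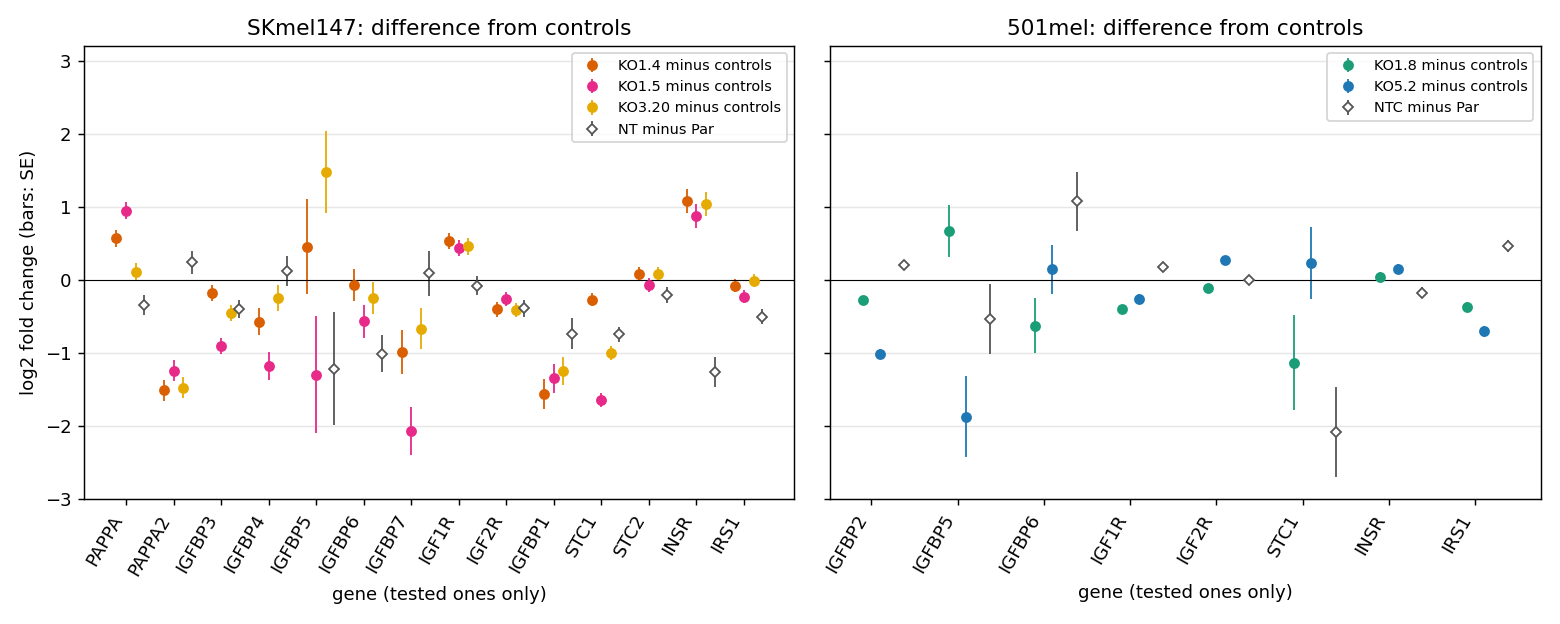
Log2 fold change of each tested gene with its SE, for each KO line against the mean of both controls (filled points) and for the transduced control against Par (open diamonds). In SKmel147 (left) IGF1R lies between 0.44 and 0.53 in every KO line and PAPPA between 0.11 and 0.95; in 501mel (right) IGF1R and IGFBP2 lie below 0 in both KO lines.

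In 501mel 5 members passed the filter on low counts: IGFBP2, IGFBP5, IGFBP6, IGF1R and IGF2R. IGFBP2 and IGF1R fell in the KO lines, 2 of 5, in a contrast where 51.3% of 16230 tested genes were called (24.7% higher and 26.5% lower), so the members' share was not above the background. IGFBP2, nearly the only binding protein of these cells, was at 87.3 and 80.1 CPM in Par and 100.1 and 92.6 in NTC. KO1.8 had 74.8 and 73.0 CPM and KO5.2 had 43.4 and 45.7. Every KO library lay below every control library, and KO5.2 was the lower line. IGFBP2 fell by 0.65 ± 0.05 on the log2 scale (adjusted p = 5.12e-08), with -0.28 in KO1.8 and -1.01 in KO5.2 (adjusted p = 0.00109 and 5.45e-09). NTC was above Par by 0.20 ± 0.06 (adjusted p = 0.0469).

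IGF1R in 501mel was at 433 and 389 CPM in Par and 485 and 443 in NTC. KO1.8 had 342 and 318 CPM and KO5.2 had 381 and 349, below every control library. It fell by 0.33 ± 0.05 on the log2 scale (adjusted p = 5.32e-05), with -0.40 in KO1.8 and -0.26 in KO5.2 (adjusted p = 9.98e-05 and 0.00219). The 20 nearest tested genes on chromosome 15 had a median of -0.25 in this contrast, while all of chromosome 15 had 0.22. In SKmel147 the same comparison gave neighbours at 0.02 and chromosome 15 at 0.03. Whether the neighbourhood moves with IGF1R for a shared reason was not tested.

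IGF2R in 501mel was at 519 and 469 CPM in Par, 515 and 475 in NTC, 469 and 444 in KO1.8, and 611 and 586 in KO5.2. Both KO5.2 libraries lay above every control library. KO1.8 R2 lay below every control library, while KO1.8 R1 was level with the lowest of them, Par R2. Over both the difference was 0.08 ± 0.04 (adjusted p = 0.143); KO5.2 was higher by 0.28 ± 0.05 (adjusted p = 0.000517) and KO1.8 differed by -0.11 ± 0.05 (adjusted p = 0.106). In KO5.2 the 20 neighbours of IGF2R on chromosome 6 had a median of 0.38 and the chromosome 0.23; in KO1.8 these medians were -0.11 and 0.12. IGFBP6 and IGFBP5 were at most 1.25 and 0.78 CPM and differed by -0.24 ± 0.29 and -0.60 ± 0.38 (adjusted p = 0.521 and 0.21). IGFBP5 was at 0.05 and 0.20 CPM in KO5.2, and fell there (log2 difference -1.87 ± 0.55, adjusted p = 0.0108). That fall rests on few reads: IGFBP5 had 1 and 4 counts in KO5.2, 11 and 9 in Par, and 6 and 9 in NTC.

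Line by line, 2 of 5 members passed in KO1.8 (IGFBP2 and IGF1R), where 40.2% of genes were called, and 4 of 5 in KO5.2 (all but IGFBP6), where 53.5% were. Between NTC and Par 1 of 5 passed, IGFBP2, where 15.7% were called. That call was lost without Par R2, either NTC library, KO1.8 R1 or either KO5.2 library, with adjusted p-values of 0.0522 to 0.301. With 1 summed sample per line, edgeR called none of the 5 members and 0 of 17114 genes in 501mel KO against controls. There 1 member, IGF1R, had an unadjusted p under 0.05, as did 2360 genes (13.8%). With limma-voom and the line as a block 942 genes were called and none of the members, with adjusted p = 0.0618 for IGFBP2 and 0.138 for IGF1R.

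Whether KO lines differed from controls alike in SKmel147 and 501mel could be estimated for the 4 members that passed the filter in both: IGFBP5, IGFBP6, IGF1R and IGF2R. IGF1R and IGF2R differed, 2 of 4, where 21.3% of 19518 genes did. The 19518 include genes that passed the filter in 1 cell line only, so these shares are not of like sets. The IGF1R effect was higher in SKmel147 than in 501mel by 0.82 ± 0.10 on the log2 scale (adjusted p = 2.16e-05), from a rise in one and a fall in the other. The IGF2R effect was lower by -0.43 ± 0.09 (adjusted p = 0.00223). With 1 summed sample per line the IGF1R difference was 0.83 (adjusted p = 0.104) and the IGF2R difference -0.46 (adjusted p = 0.51). The balance of the 2 receptors was also taken within each library, without any scaling. In SKmel147 there were 0.140 to 0.214 IGF1R reads per IGF2R read in the controls and 0.265 to 0.332 in the KO libraries. In 501mel there were 0.829 to 0.942 in the controls and 0.596 to 0.729 in the KO libraries. In neither cell line did the groups overlap, and the directions were opposite. IGFBP5 and IGFBP6 differed by 0.82 ± 0.69 and -0.04 ± 0.39 (adjusted p = 0.481 and 1). The remaining members were near 0 in one cell line and give no estimate.

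**Figure D4:**
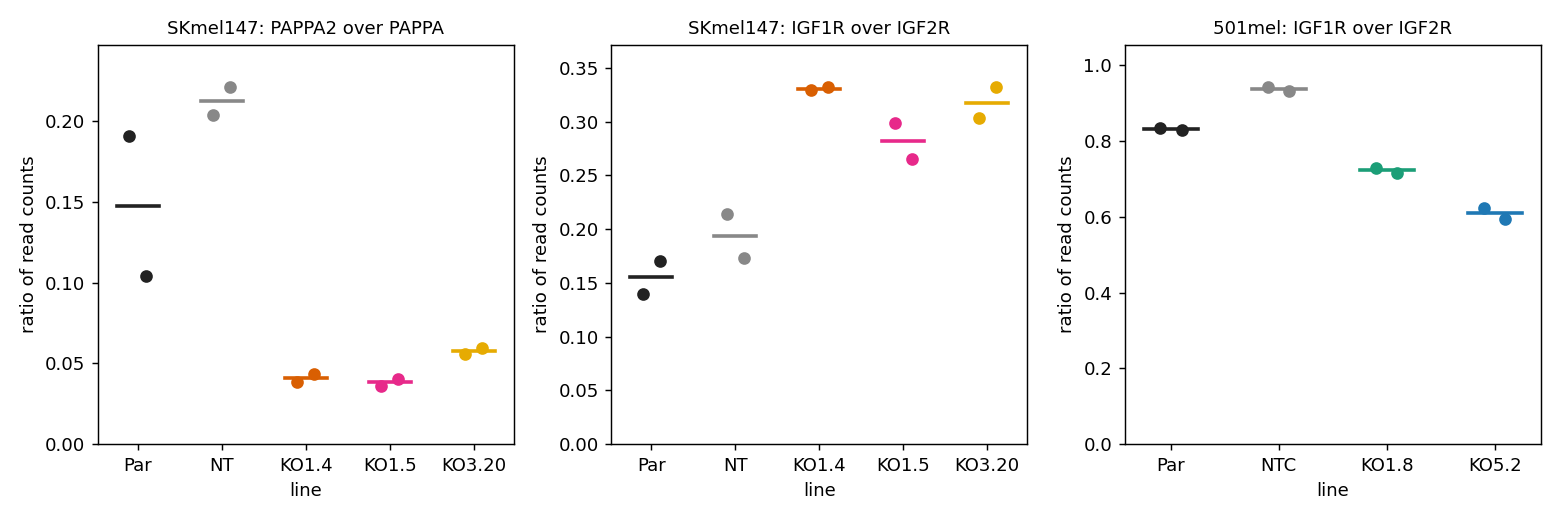
Read count of the first gene divided by that of the second in each library (points), with the line mean (bar); every vertical axis starts at 0. PAPPA2 over PAPPA is 0.104 to 0.221 in the SKmel147 controls and 0.0362 to 0.0594 in the KO libraries; IGF1R over IGF2R is higher in KO than in controls in SKmel147 and lower in 501mel.

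Of the 42 other genes listed for the pathway, 34 were tested in SKmel147, and 10 passed, 6 higher and 4 lower, where 17.7% of all genes passed (8.07% higher and 9.6% lower), with a median log2 change of 0.02 against -0.01 over all genes. The ligands were scarce: IGF1 stayed at or below 0.225 CPM, IGF2 at or below 0.516 CPM, and INS at 0 counts in every SKmel147 library. HTRA1, a secreted serine protease that also cuts binding proteins, was at 15.9 to 53.6 CPM in the controls. It was at 11.8 and 11.9 CPM in KO1.4, 1.13 and 0.81 in KO1.5, and 39.1 and 33.8 in KO3.20. HTRA1 fell by 2.04 ± 0.28 on the log2 scale (adjusted p = 0.000498), and without KO1.5 the difference was -0.56 (adjusted p = 0.243). IRS4, an adaptor of the receptors, was lower by 3.07 ± 0.53 from low counts, 37 in the 4 control libraries and 6 in the 6 KO libraries. Only the NT libraries, at 0.509 and 0.360 CPM, took it past the filter on low counts. Its call, among the 4 lower, was thus largely set beforehand, and IRS4 is given without a test. The adaptors IRS1 and IRS2 differed by -0.11 and 0.10 from both controls together (adjusted p = 0.316 and 0.444), but the controls themselves differed. NT against Par was -0.50 for IRS1 and 0.64 for IRS2 (adjusted p = 0.0132 and 0.00869). Against Par alone the KO lines were at -0.36 and 0.41 (adjusted p = 0.011 and 0.0132), and against NT alone at 0.15 and -0.22 (adjusted p = 0.335 and 0.172). With limma-voom and the line as a block IGFBP1 still passed (adjusted p = 0.00747), while STC1, INSR and HTRA1 did not (adjusted p = 0.078, 0.056 and 0.329). The protease ADAM12, which also cuts binding proteins, differed by 0.26 ± 0.16 (adjusted p = 0.318), and by 0.56 (adjusted p = 0.00272) without Par R2.

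In 501mel 30 of the 42 were tested and 16 passed, 8 higher and 8 lower, a share close to the 51.3% of all genes. IRS1, the adaptor that passes the IGF1R signal on, was at 26.2 and 24.1 CPM in Par, 34.7 and 34.6 in NTC, 23.6 and 22.2 in KO1.8, and 18.2 and 18 in KO5.2. It fell by 0.54 ± 0.06 on the log2 scale (adjusted p = 2.13e-06). GRB10, an adaptor that dampens the receptor, fell by 0.33 ± 0.04 (adjusted p = 1.39e-05), and passed in KO1.8 (-0.61, adjusted p = 5.87e-07) but not in KO5.2 (-0.04, adjusted p = 0.489). ADAM12 rose by 1.17 ± 0.21 (adjusted p = 0.000264), from 0.88 to 1.25 CPM in the controls to 3.05 and 3.87 in KO5.2, and was 0.62 higher without KO5.2 (adjusted p = 0.0788). With limma-voom and the line as a block none of these 3 passed (adjusted p = 0.0802 for IRS1, 0.236 for GRB10 and 0.191 for ADAM12). IGF1 had 1.41 and 1.06 CPM in the KO1.8 libraries but at most 0.41 CPM elsewhere in 501mel. Only the KO1.8 libraries took IGF1 past the filter on low counts, so its rise there, 2.40 ± 0.40, is given without a test. IGF1 fell in KO5.2 (-2.855 ± 0.98, adjusted p = 0.0242), and the difference over both lines was -0.23 (adjusted p = 0.736). The fall in KO5.2 rests on few reads: IGF1 had 0 and 1 counts there, 7 and 6 in Par, and 1 and 4 in NTC. KO5.2 R2 and NTC R1 were at a similar level (0.0503 and 0.0595 CPM). Of the 29 pathway genes testable in both cell lines, 13 differed in their KO effect. Over the joint fit of both cell lines this was 13 of 34 pathway genes, where 21.3% of all genes differed. The 21.3% includes genes that passed the filter in 1 cell line only, so it is no background for the 29. With 1 summed sample per line 3 genes of all tested differed.

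The genes whose level over the 5 SKmel147 lines was most like that of PAPPA2 were TRIM36, NRXN3, RIMKLB, UCHL1 and LRIG1. Their root mean square differences from the PAPPA2 pattern were 0.11, 0.14, 0.17, 0.18 and 0.18 on the log2 scale, after each gene was centred on its mean, of 14641 genes ranked. TRIM36 was lower than the control lines by -1.24, -1.21 and -1.35 in KO1.4, KO1.5 and KO3.20. The ranking uses 5 line means of the contrast that chose the family and is a description.

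Markers of other cell types were measured in the same libraries. The 8 fibroblast markers summed to 9.87 to 11.9 CPM in the SKmel147 controls and 13.0 to 18.7 in the KO libraries, with DCN at 0 and 2 of 8 at 1 CPM or more throughout. The 5 endothelial markers summed to 1.56 to 13.5 CPM in the controls and 0.70 to 2.03 in the KO libraries, with CDH5 at 0 in the controls. TIE1 carried that sum, at 0.10 to 12.8 CPM, and the other 4 were at most 0.79 CPM. Of the 6 epithelial markers, which summed to 38.9 to 59.1 CPM in the controls and 41.7 to 47.2 in the KO libraries, 2 and 3 were at 1 CPM or more throughout. KRT18 carried most of that sum, at 35.8 to 54.8 CPM, and each of the others was at most 6.30 CPM. EPCAM and CDH1 were at most 0.102 and 0.183 CPM. In 501mel the fibroblast markers summed to 2.58 to 3.31 CPM in the controls and 0.42 to 1.93 in the KO libraries, with DCN at 0. The 10 melanocyte lineage markers summed to 9576 to 10173 CPM in the 501mel controls and 7348 to 10013 in the KO libraries, and to 166 to 264 and 170 to 236 in SKmel147. The part of these in the results was not tested. In bulk RNA, fewer cells that express a gene and less RNA per cell cannot be told apart. Antisense transcripts overlap some members, and the strand setting of the counting is not given in the sources used here. PAPPA-AS1, IGFBP7-AS1 and AIRN, which lie against PAPPA, IGFBP7 and IGF2R, had at most 0.0720 CPM in any SKmel147 library, and PAPPA-AS2 at most 0.472 CPM.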

How the data were processed

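Each table holds raw read counts per gene symbol, deposited by the authors, with a column for every library. STAR 2.6.0 and featureCounts are the tools named per the submitters' processing notes, and GRCh37 and hg19 the builds. The annotation, the strand setting and the handling of shared reads are not stated in what was used here; the kit was directional, per the labels' protocols. The SKmel147 table heads its transduced control columns NTC where the labels say NT. No column was left out (0).

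Each cell line was fitted by itself in edgeR 4.0.16 (R 4.3.3), after TMM scaling and filterByExpr, with a coefficient for every line. In KO against controls each line has equal weight within its arm. Contrasts used the quasi-likelihood test with Benjamini-Hochberg adjustment over all tested genes, called at an adjusted p under 0.05. The difference between cell lines and the control comparison came from 1 joint fit of all 18 libraries. SE is the log2 fold change over the square root of F. Levels are CPM with TMM factors; between genes they were divided by exonic length in GENCODE 29, which matched 35407 symbols, 1340 of them through an older symbol. Likeness used log2 CPM with a pseudocount of 0.1. Exact counting intervals are at 95%. The fit was checked on simulated counts.

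Alternatives used DESeq2 1.42.0 (size factors and Wald test), limma 3.58.1 (voom with the line as a block), no filter, a replicate block, single controls, single libraries or lines left out, summed lines, and a loess correction (span 0.3) for GC content and length. Libraries of a line differed by more than counting noise (chi-square per degree of freedom 2.38 to 35.2), so none was merged. The named genes were all members, ARID2, the ligands, other binding proteins, inhibitors, proteases, receptors and adaptors of the list, and the 5 genes most like PAPPA2; the rest of the list is given by counts. Members and lists were chosen with earlier results of these data known. The leukocyte marker list is not reported here.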

Additional observations from a re-analysis of the deposited data

Results flagged for a closer look

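The KO effect on IGF1R differed between SKmel147 and 501mel by 0.82 on the log2 scale in edgeR's interaction test (adjusted p = 2.16e-05), with all KO libraries above all control libraries in SKmel147 and all below them in 501mel. The effect on IGF2R differed by -0.43 (adjusted p = 0.00223). Among the pathway genes named in the report, INSR differed by 0.91 (adjusted p = 0.000191), IRS1 by 0.44 (adjusted p = 0.00123) and GRB10 by 0.40 (adjusted p = 0.00668). With 1 summed sample per line none of these 5 passed (adjusted p = 0.104 to 0.646). The INSR difference goes with a control that was itself divided, since NT was lower than Par by a log2 value of -1.26. IRS1 and IGF2R also depended on the control in SKmel147. The KO change of IRS1 was -0.36 against Par alone and 0.15 against NT alone. That of IGF2R was -0.17 against NT alone and did not pass. Among the 6 SKmel147 KO libraries, KO1.4 R1 stood apart in IGF1R with 63.9 CPM, the highest; 25 groups of member values were examined and 1 was flagged, and chance flags about 1 in 20.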

How the results depend on the processing

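Most member values kept their direction and side of the threshold under the alternatives. In SKmel147 KO against controls 177 of 198 did. The 198 include those of PAPPA2, on which the family was chosen, so nothing is read from that share. In 501mel KO against controls 82 of 94 did, and 81 of 88 for the difference between cell lines. Between the control lines 220 of 220 did, among them members that passed the filter in 1 cell line only. The counts were 120 of 135 in NT against Par and 51 of 65 in NTC against Par, the least stable. Depth limits IGFBP2 and IGFBP5 in SKmel147 and IGFBP5 and IGFBP6 in 501mel, all near or below 1 CPM. It also limits IGFBP7 in SKmel147, which had 9 to 34 counts in each KO library. The choice of replicate mattered most, and the cause of the other changes was not tested. With 1 summed sample per line, 13 genes and 0 members besides PAPPA2 were called in SKmel147, 0 genes and 0 members in 501mel, and 3 genes and 0 members for the difference, by edgeR; unadjusted p-values under 0.05 were found for 2501, 2360 and 2208 genes. With voom and the line as a block there were 597 genes and 1 member in SKmel147, and 942 genes and 0 members in 501mel. Genes called in SKmel147 KO numbered 5364 with the GC and length correction, 2076 against NT alone and 2094 without the line KO3.20. For NT against Par the Wald test of DESeq2 called 3 members, no filter 2680 genes and 2 members, and the correction 2995 genes and 3 members. For NTC against Par these were 1590 genes and 0 members (Wald), 2 members (no filter) and 0 members (correction).

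Leaving out 1 library gave 2232 to 3349 genes and 6 to 7 members in SKmel147 KO, 7330 to 7897 and 2 to 3 in 501mel KO, 436 to 2375 and 0 to 2 in NT against Par, 1310 to 2652 and 0 to 2 in NTC against Par, 3245 to 4723 and 2 to 3 for the difference, and 15674 to 16235 and 9 to 9 between the controls. The NT against Par count was lowest without NT R1 (436), then without Par R2 (889), KO1.4 R2 (1096) and KO1.4 R1 (1127). The NTC against Par count was lowest without NTC R2 (1310) and NTC R1 (1328).

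The same replicate number did not pair libraries alike: correlations of their deviations ran from -0.48 to 0.56 in SKmel147 (4 of 10 pairs over 0.1) and from -0.01 to 0.20 in 501mel (3 of 6). The SKmel147 deviations were still shared between lines. Par, NT and KO1.5 correlated positively with each other (0.31 to 0.56), as did KO1.4 with KO3.20 (0.12). Every pair across these sets was negative (-0.48 to -0.19), a pattern that a block by replicate number does not follow. With the replicate block 3083 genes and 6 members were called in SKmel147 KO, 9045 and 3 in 501mel KO (IGF2R 0.08, adjusted p = 0.0252), 4022 and 2 for the difference, 1610 and 1 for NT against Par, and 3560 and 2 for NTC against Par.

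Signs turned for values that had not passed. In SKmel147 KO, IGFBP5 was -0.40 against Par alone, -0.27 with voom, -0.41 without KO3.20 and -1.40 to 0.58 with 1 library left out. Against Par alone STC2 was -0.0676 and GRB10 -0.11; against NT alone IGFBP6 was 0.21, IRS1 0.15 and IRS2 -0.22; with 1 library left out STC2 was -0.0221 to 0.102. In NT against Par, IGF1R was 0.0443 with the correction and -0.27 to 0.10 with 1 library left out, where IGFBP4 was -0.0903 to 0.29 and IGFBP7 -0.19 to 0.31. In 501mel KO, IGFBP6 was 0.30 against Par alone and 0.14 without KO1.8, IGFBP5 0.67 and IGF2R -0.12 without KO5.2. IGF1 was 0.51 against NTC alone, 1.29 with summed lines, 2.40 without KO5.2 and -1.36 to 0.32 with 1 library left out; STC1 was -1.49 against Par alone (adjusted p = 0.0216), 0.59 against NTC alone, 0.23 without KO1.8 and -0.71 to 0.10 with 1 library left out. In NTC against Par, IGF2R was -0.0337 with the correction and -0.0720 to 0.0791 with 1 library left out. For the difference, IGFBP5 was -0.71 to 1.43, IGFBP6 -0.29 to 0.33 and IRS2 -0.0121 to 0.0847 with 1 library left out, and IRS2 was -0.00194 with summed lines.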
